A study of Mus musculus with 6 samples.

Results

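The enzymes described here make, salvage or break down the deoxyribonucleoside triphosphates (dNTPs), the building blocks of DNA. They were chosen by name as 9 genes: *Rrm1*, *Rrm2*, *Tyms*, *Tk1*, *Dck*, *Dtymk*, *Dut*, *Nme1* and *Samhd1*. All 9 were found among the 23183 gene symbols of each library. The mRNA was sequenced from sorted CD4+CD8+ double positive (DP) thymocytes, the immature T cells of the thymus, in 3 libraries of NSRP1f/f mice (WT) and 3 of NSRP1f/fCD4Cre mice (NSrp70-cKO). Both groups were C57BL/6 mice at 6 weeks of age and carried the floxed *Nsrp1* allele. In the cKO mice Cre, driven by *Cd4* regulatory elements, deletes *Nsrp1*, which encodes the splicing regulator NSrp70, before and at the DP stage, and the genotype label of the WT mice names no Cre. Whether a library came from 1 animal or from several is not stated, so the p-values measure the spread between these libraries only.

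Ribonucleotide reductase, built of a large subunit (RRM1) and a small subunit (RRM2 or RRM2B), converts ribonucleotides to deoxyribonucleotides. Thymidylate is made from dUMP by thymidylate synthase, and dUTPase supplies dUMP while it keeps uracil out of DNA. Thymidine kinase and deoxycytidine kinase recover nucleosides instead, and mono- and diphosphate kinases complete the triphosphates. SAMHD1 works in the opposite direction and hydrolyses dNTPs to nucleosides. Several of these genes are known to be transcribed mainly in S phase, through E2F factors. In the thymus dNTP balance is known to matter, since loss of *Dck*, *Ada* or *Pnp* impairs T cell development.

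The start regions of 4 of the enzymes are shown because they carry the motif matches among the 9, or, for *Samhd1*, because it was the gene that moved the other way. Each is the RefSeq sequence (GRCm38.p6) from 250 bases before to 50 bases after the annotated start, 5′ to 3′ on the strand of the gene. Capitals mark matches to CCAAT, the core of the NF-Y motif, and to 4 words of the E2F type, searched on both strands. The first of these words was TTCCCGC. A variant of it was TTCGCGC. The others were TTGCCGC in one form and TTGGCGC in another. *Rrm1* lies at chr7:102441445-102441744 (plus strand), *Rrm2* at chr12:24708004-24708303 (plus strand), *Dtymk* at chr1:93801885-93802184 (minus strand) and *Samhd1* at chr2:157135047-157135346 (minus strand).
Rrm1: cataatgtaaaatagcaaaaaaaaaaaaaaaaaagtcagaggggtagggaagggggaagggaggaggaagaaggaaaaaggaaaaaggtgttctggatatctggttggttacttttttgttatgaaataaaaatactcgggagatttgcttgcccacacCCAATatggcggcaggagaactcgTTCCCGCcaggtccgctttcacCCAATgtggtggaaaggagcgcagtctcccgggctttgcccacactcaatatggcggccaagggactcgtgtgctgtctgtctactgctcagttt
Rrm2: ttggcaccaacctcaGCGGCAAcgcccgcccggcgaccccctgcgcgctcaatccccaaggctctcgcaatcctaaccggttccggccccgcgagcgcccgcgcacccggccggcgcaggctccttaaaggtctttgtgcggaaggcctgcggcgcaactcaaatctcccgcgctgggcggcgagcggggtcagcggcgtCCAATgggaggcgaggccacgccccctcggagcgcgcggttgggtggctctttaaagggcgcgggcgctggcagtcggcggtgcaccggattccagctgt
Dtymk: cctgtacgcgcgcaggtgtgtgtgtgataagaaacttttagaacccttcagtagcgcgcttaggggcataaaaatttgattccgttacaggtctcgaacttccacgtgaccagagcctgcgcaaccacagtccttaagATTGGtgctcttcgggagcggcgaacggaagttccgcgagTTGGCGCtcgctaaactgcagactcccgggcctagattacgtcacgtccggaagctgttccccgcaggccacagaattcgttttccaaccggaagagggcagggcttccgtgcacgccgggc
Samhd1: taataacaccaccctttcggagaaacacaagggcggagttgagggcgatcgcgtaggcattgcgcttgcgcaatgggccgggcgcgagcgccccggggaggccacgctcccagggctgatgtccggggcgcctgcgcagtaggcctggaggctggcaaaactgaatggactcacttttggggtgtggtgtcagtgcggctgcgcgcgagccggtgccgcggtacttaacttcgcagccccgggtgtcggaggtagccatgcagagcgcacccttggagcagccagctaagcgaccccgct

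The *Rrm1* promoter held TTCCCGC from 67 to 61 bases before the start, between CCAAT copies at 91 to 87 and 45 to 41 bases before it. In *Rrm2*, the word TTGCCGC lay on the minus strand, 235 to 229 bases before the start and printed as GCGGCAA, and a CCAAT lay 50 to 46 bases before it. In *Dtymk*, TTGGCGC lay 72 to 66 bases before the start and a CCAAT on the minus strand 112 to 108 bases before it, printed as ATTGG. No match overlapped another. The same 3 genes thus held both kinds of match, and the windows of *Tyms*, *Tk1*, *Dck*, *Dut*, *Nme1* and *Samhd1* held neither. An E2F-type word was held by 9.57% of all 32851 RefSeq promoters of this length, and a CCAAT by 37.4%. Among the 10395 promoters of genes tested here the shares were 17.5% and 38.5%. The matches are a description of the letters in these windows. *Samhd1*, which fell in cKO, and *Tk1*, which rose, both held none.

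Of the 9 enzymes, 8 were higher in NSrp70-cKO than in WT DP thymocytes and 1, *Samhd1*, was lower. The FPKM ratios were highest for both ribonucleotide reductase subunits, thymidylate synthase and thymidine kinase (cKO to WT means, from 2.04 to 2.28) and smaller for *Dck*, *Dtymk*, *Dut* and *Nme1* (from 1.49 to 1.66). *Samhd1* was 7.81-fold lower. FPKM, as deposited by the authors, counts the fragments of a gene per kilobase of its length and relative to all fragments mapped in that library. The limma test was run on log2(FPKM + 1) after division by a size factor, over 10326 genes that reached FPKM 1 in 3 or more of the libraries, so fold changes of low genes are understated. Differences between the genotypes were common: 65.5% of the tested genes were called at an adjusted p under 0.05, 35.8% higher and 29.8% lower in cKO. The calls of the single enzymes are to be read against these shares. The median log2 fold change was 0.71 over the 9 enzymes and 0.04 over all tested genes. Of the 9 enzymes, 8 had an FPKM of 1 or more in all 6 libraries and *Samhd1* in the WT libraries only, so it passed the filter through the group in which it was high.

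**Figure D1:**
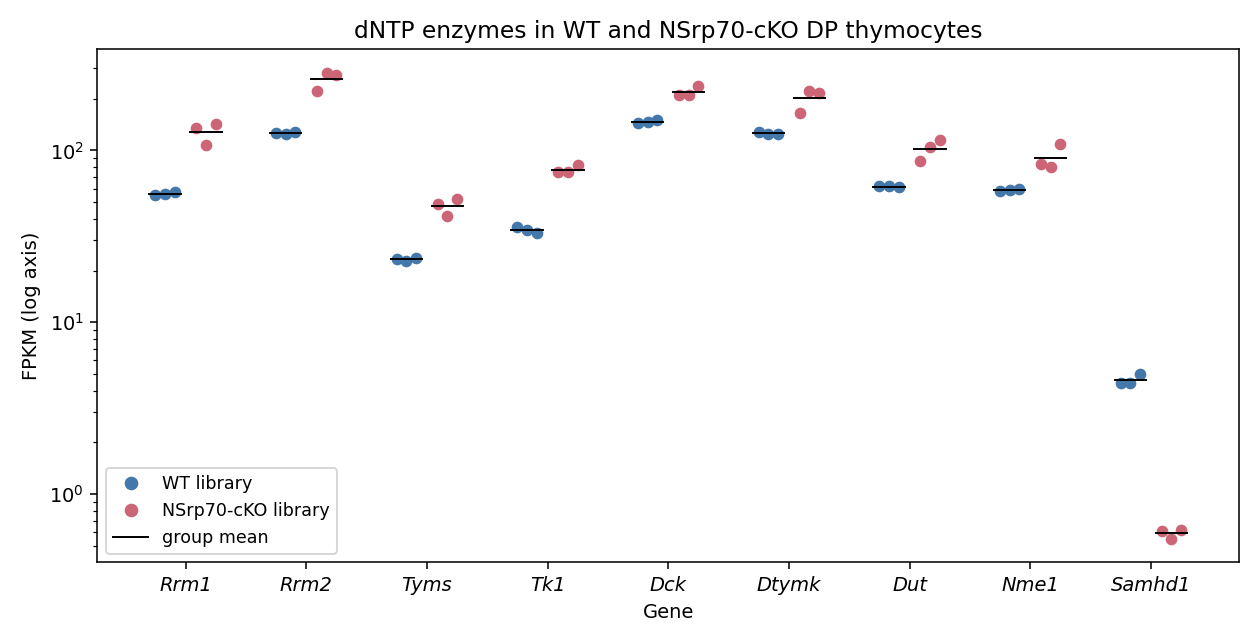
FPKM of the 9 dNTP enzymes (log axis) in each of the 3 WT and 3 NSrp70-cKO libraries, with the group mean as a line. The groups did not overlap at any of the 9 genes: 8 lay higher in cKO, and *Samhd1* fell from a mean of 4.62 to 0.592.

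The spread between libraries was unequal. Mapped depth, estimated from the steps of 1 fragment at single-transcript genes with an assumed fragment length of 200 nucleotides, was 20.71 to 20.83 M fragments in WT and 13.09 to 20.68 M in cKO (M, mega). WT pairs differed by 1.49 to 1.59 times the variance of counting noise and cKO pairs by 33.4 to 74.1 times, so the 3 WT libraries were nearly as alike as repeat counts of 1 sample. FPKM values summed to 521296 to 531517 per WT library and to 701396 to 850548 per cKO library. *Nsrp1*, which the files list as *Ccdc55*, had an FPKM of 20.7 ± 0.479 (SD, n = 3) in WT and 16.2 ± 1.39 (n = 3) in cKO (log2 fold change -0.34, standard error 0.077, adjusted p = 0.00675 from limma). Whether its reads came from outside the deleted part cannot be seen in a value per gene. The mean FPKM of *Xist* was 70.9 in WT but 4.75 in cKO, and *Ddx3y*, *Eif2s3y*, *Kdm5d* and *Uty* of chromosome Y were above 0 in the cKO libraries only, so sex and genotype cannot be told apart here. All 9 enzymes are autosomal.

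Both main subunits of ribonucleotide reductase were higher in cKO, and *Rrm2b*, a paralog of *Rrm2*, did not pass the test. *Rrm1* (chromosome 7, 102441695 to 102469771, GRCm38), the large subunit that holds the active site, had an FPKM of 55.3, 55.7 and 57.4 in WT 1, 2 and 3 and of 134.7, 107.4 and 142.4 in cKO 1, 2 and 3. Its log2 fold change was 1.17 (standard error 0.11, adjusted p = 0.000264 from limma), above that of 98.1% of the tested genes. The WT values lay close together while cKO 2 stood below the other cKO libraries, still well above every WT library. *Rrm2* (chromosome 12, 24708241 to 24714146), the small subunit that carries the tyrosyl radical and is the S-phase form, had an FPKM of 127.0, 125.1 and 128.1 in WT and of 222.7, 282.6 and 273.1 in cKO. The log2 fold change of *Rrm2* was 1.02 (standard error 0.10, adjusted p = 0.000276 from limma). Here cKO 1 was the lowest of the cKO libraries, and cKO 2, which was the lowest for *Rrm1*, was the highest. *Rrm2b*, the p53-inducible small subunit that serves cells outside S phase, had an FPKM of 4.42 ± 0.427 in WT and 5.42 ± 0.735 in cKO (SD, n = 3; log2 fold change 0.24, adjusted p = 0.0854 from limma). *Rrm2b* overlaps a processed pseudogene on its own strand, so its reads may be shared.

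Levels of the subunits were also compared within each library, where scaling between libraries has no effect. The FPKM ratio of *Rrm2* to *Rrm1* was 2.30, 2.25 and 2.23 in WT and 1.65, 2.63 and 1.92 in cKO. The groups overlapped (exact permutation test, two-sided, p = 0.5; the smallest p that 3 against 3 libraries allow is 0.1). The ratio of *Rrm2b* to *Rrm2* was 0.0387, 0.0331 and 0.0328 in WT and 0.0224, 0.0177 and 0.0229 in cKO, with every cKO library below every WT library (difference of -0.74 in the mean log2 ratio, exact permutation p = 0.1). Of 10 such pairs compared, 7 did not overlap between the groups and each of those reached this smallest p, so none could pass 0.05 before or after adjustment. Among all tested genes, taken singly, the cKO libraries lay wholly above the WT libraries for 39.2% and wholly below for 33.3%. These are not shares of gene pairs, and several of the 10 pairs have a gene in common.

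Thymidylate synthase and dUTPase, which use and make dUMP, were both higher in cKO. *Tyms* (chromosome 5, 30058202 to 30073617), thymidylate synthase, had an FPKM of 23.3, 22.8 and 23.6 in WT and of 48.8, 41.4 and 52.2 in cKO. Its log2 fold change was 0.99 (standard error 0.095, adjusted p = 0.000255 from limma). As for *Rrm1*, cKO 2 was the lowest of the cKO libraries. *Dut* (chromosome 2, 125247190 to 125258608), dUTPase, had an FPKM of 61.8, 61.7 and 61.2 in WT and of 86.2, 104.6 and 115.1 in cKO. The log2 fold change of *Dut* was 0.71 (standard error 0.11, adjusted p = 0.0012 from limma). The WT libraries were almost level and cKO 1 was the closest to them. Within libraries the FPKM ratio of *Dut* to *Tyms* was 2.65, 2.71 and 2.59 in WT and 1.77, 2.53 and 2.21 in cKO, without overlap (difference in mean log2 ratio -0.31, exact permutation p = 0.1).

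The folate cycle, which provides the methyl group for thymidylate, was represented by 6 further tested genes, of which 4 were called higher and 1 lower. *Shmt1*, the cytosolic serine hydroxymethyltransferase, had an FPKM of 4.45 ± 0.425 in WT and 11.2 ± 1.86 in cKO (SD, n = 3; log2 fold change 1.16, adjusted p = 0.0004 from limma). *Mthfd2*, a mitochondrial folate dehydrogenase, rose by 0.87 on the log2 scale (limma, adjusted p = 0.000171). The mitochondrial paralog *Shmt2* had an FPKM of 19.7 ± 0.523 and 15.9 ± 2.64 and did not pass the test (log2 fold change -0.31, adjusted p = 0.0558 from limma).

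Both cytosolic salvage kinases were called higher and neither of the mitochondrial ones was, but the call of *Dck* depended on scaling. *Tk1* (chromosome 11, 117815526 to 117826092), cytosolic thymidine kinase, had an FPKM of 35.7, 34.5 and 33.1 in WT and of 74.6, 74.5 and 82.4 in cKO. The log2 fold change of *Tk1* was 1.14 (adjusted p = 9.9e-05 from limma), with the smallest standard error of the 8 rising enzymes, 0.071. *Dck* (chromosome 5, 88764996 to 88783281), deoxycytidine kinase, which also phosphorylates deoxyadenosine and deoxyguanosine, had an FPKM of 144, 146 and 150 in WT and of 209, 210 and 237 in cKO. Its change was the smallest of the 8 rising enzymes (log2 fold change 0.57, standard error 0.079, adjusted p = 0.00089 from limma), and it had the highest WT level of the 9. With a common FPKM total the change of *Dck* was 0.01 (adjusted p = 0.912 from limma). With quantile normalization it was 0.08 (adjusted p = 0.221 from limma). *Tk2*, mitochondrial thymidine kinase, fell from 9.28 ± 0.590 to 4.79 ± 1.48 FPKM (SD, n = 3; log2 fold change -0.86, adjusted p = 0.00467 from limma). The calls of *Dck* and *Tk2* were lost with the WT mean as 1 sample. *Dguok*, mitochondrial deoxyguanosine kinase, had an FPKM of 16.0 ± 1.75 and 16.2 ± 1.82, with overlapping groups (log2 fold change 0.01, adjusted p = 0.923 from limma).

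The kinases were also compared with each other within libraries, where no pair could pass the test. The FPKM ratio of *Dck* to *Tk1* was 4.04, 4.23 and 4.53 in WT and 2.80, 2.82 and 2.88 in cKO (difference in mean log2 ratio -0.59, exact permutation p = 0.1). The cKO libraries were closely alike in this ratio although their levels differed. The ratio of *Tk2* to *Tk1* was 0.275, 0.272 and 0.262 in WT and 0.0434, 0.0829 and 0.0601 in cKO (difference in mean log2 ratio -2.17, exact permutation p = 0.1). For *Dguok* against *Dck* the difference was -0.56 on the log2 scale (exact permutation p = 0.1). *Tyms* and *Tk1*, the enzymes of the de novo and the salvage route to thymidylate, had ratios of 0.653 to 0.715 in WT and 0.555 to 0.655 in cKO. These overlapped only through cKO 1 (difference in mean log2 ratio -0.14, exact permutation p = 0.2). *Tk1* overlaps the genes *Gm20708* and *Afmid* on the opposite strand, and the strand setting used for the FPKM values is not given in the sources used here.

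The kinases that add the remaining phosphates, *Dtymk* and *Nme1*, were called higher, but both lost the call with a common FPKM total (log2 fold changes 0.10 and 0.05, adjusted p = 0.53 and 0.641 from limma) and with the WT mean as 1 sample. *Dtymk* (chromosome 1, 93792576 to 93801934), thymidylate kinase, which takes dTMP from both routes to dTDP, had an FPKM of 127.2, 124.0 and 125.3 in WT and of 164, 223 and 217 in cKO. Its log2 fold change was 0.66 (standard error 0.12, adjusted p = 0.0026 from limma). The library cKO 1 lay nearest to WT, as it did for *Rrm2* and *Dut*. The FPKM ratio of *Dtymk* to *Tyms* was 5.30 to 5.45 in WT and 3.36 to 5.38 in cKO. It overlapped only through cKO 2 (difference in mean log2 ratio -0.36, exact permutation p = 0.2). *Nme1* (chromosome 11, 93956979 to 93968521), a nucleoside diphosphate kinase that passes the last phosphate to all dNTPs, had an FPKM of 58.0, 59.0 and 59.6 in WT and of 83.9, 79.9 and 108.3 in cKO. The log2 fold change of *Nme1* was 0.60 (standard error 0.12, adjusted p = 0.0036 from limma), and cKO 3 stood above the other cKO libraries. Its neighbour and close paralog *Nme2* had an FPKM of 127.4 ± 3.00 in WT and 234 ± 55.6 in cKO (SD, n = 3; log2 fold change 0.84, adjusted p = 0.00388 from limma). *Nme1* and *Nme2* lie 719 bases apart on 1 strand, and the annotated read-through gene *Gm20390* overlaps both, so how fragments were split between them is uncertain. The ratio of *Nme1* to *Nme2* was 0.453 to 0.467 in WT and 0.358 to 0.449 in cKO.

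The counts for other kinases of these families depended on scaling. Among other monophosphate kinases 4 of 6 tested were called higher and none lower, but 1 higher and 3 lower when libraries were brought to 1 FPKM total. All 5 other diphosphate kinases were called higher, and 3 of them with that total. Under it, 8.74% of all tested genes were called higher and 59.9% lower. *Ak6*, a nuclear adenylate kinase, rose by 1.12 on the log2 scale, but shares 4482 bases with *Taf9* on its strand. *Cmpk1*, the UMP-CMP kinase that also acts on dCMP, rose by 0.53 on the log2 scale, and *Guk1*, guanylate kinase, by 0.36. Of the diphosphate kinase family, *Nme7* rose by 0.98 and *Nme4*, the mitochondrial form, by 0.85. The median log2 fold change was 0.26 over the other monophosphate kinases and 0.84 over the other diphosphate kinases, against 0.04 over all tested genes. With the common total these medians were -0.27, 0.28 and -0.45, in the same order.

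*Samhd1* (chromosome 2, 157097533 to 157135265), the dNTP triphosphohydrolase that lowers dNTP pools outside S phase, had an FPKM of 4.43, 4.44 and 5.0 in WT and of 0.610, 0.549 and 0.618 in cKO. The groups lay far apart and each was narrow. These values stand for an estimated 344, 343 and 386 fragments in WT and 30, 42 and 40 in cKO, estimated from depth and transcript length. The log2 fold change on log2(FPKM + 1) was -1.82 (standard error 0.083, adjusted p = 5.4e-05 from limma), lower than in all but 0.291% of the tested genes. It was -2.77 with a pseudocount of 0.1, since a pseudocount of 1 compresses low values. With no filter on low values, where 22% of the genes were called lower, *Samhd1* was still called (adjusted p = 0.000248 from limma). The FPKM ratio of *Samhd1*, which consumes dNTPs, to *Rrm1*, which helps to make them, was 0.0801, 0.0798 and 0.0871 in WT and 0.00453, 0.00511 and 0.00434 in cKO (difference in mean log2 ratio -4.15, exact permutation p = 0.1).

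*Samhd1* is also known to be abundant in macrophages and dendritic cells and to respond to type I interferon. Markers of macrophages and dendritic cells summed to 4.8 to 5.66 FPKM in WT and to 4.95 to 6.63 in cKO; of 8 markers 2 were tested and neither was called, and 5 were under 1 in all libraries. Of 6 tested interferon response genes 1 was called higher and 3 lower, and the 8 genes summed to 39.0 to 41.5 FPKM in WT and 33.7 to 36.3 in cKO. Mature single positive markers, of which 1 of 6 was called higher and 5 lower, summed to 158 to 160 and 134 to 149. The part of mature cells or of interferon in the *Samhd1* difference was not tested.

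The other enzymes that clear or repair nucleotides did not follow *Samhd1*: all 5 tested beside it were called higher, and 3 of them with a common FPKM total. *Dctpp1*, which removes dCTP and its modified forms, rose from 46.4 ± 1.79 to 136 ± 27.0 FPKM (SD, n = 3; log2 fold change 1.52, adjusted p = 0.000264 from limma), a higher value than that of any of the 9 enzymes. *Nudt1*, which hydrolyses oxidised purine triphosphates, and *Nudt5*, an ADP-sugar pyrophosphatase, had log2 fold changes of 0.89 and 1.08. Among nucleotidases and enzymes of nucleoside breakdown 7 of 9 tested were called higher and none lower. With 1 FPKM total for all libraries 3 were called higher and 3 lower, against 8.74% and 59.9% of all tested genes. *Pnp*, purine nucleoside phosphorylase, rose from 9.58 ± 0.203 to 20.2 ± 1.47 FPKM, a ratio of 2.11 (adjusted p = 0.00013 from limma). *Dera*, deoxyribose-phosphate aldolase, and *Ada*, adenosine deaminase, had ratios of 1.76 and 1.78.

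Genes of ribonucleotide supply were counted by route, with no test between the routes. Of 15 tested purine genes 12 were called higher and 2 lower, with a median log2 fold change of 0.68. When libraries were brought to 1 FPKM total, 5 were called higher, 3 lower and 7 not called, with a median of 0.20. *Ppat*, the first committed step, rose by 0.79 on the log2 scale, *Gmps*, GMP synthetase, by 0.77, and *Hprt*, the X-linked salvage enzyme placed in this list, by 0.98. *Impdh1*, an IMP dehydrogenase, fell from 107.9 ± 1.38 to 59.4 ± 6.13 FPKM (SD, n = 3; adjusted p = 0.000318 from limma), and *Pfas*, a middle step, fell by 0.33 on the log2 scale. Of 8 pyrimidine genes 4 were called higher and 1 lower, with a median of 0.12. With that common total 1 was called higher and 5 lower, with a median of -0.43, near the -0.45 of all tested genes. *Umps*, which makes UMP, rose by 1.10, and the CTP synthases *Ctps* and *Ctps2*, the latter on chromosome X, by 0.57 and 0.61. *Cad*, the enzyme of the first steps, fell by 0.51 (adjusted p = 0.0304 from limma). Of 5 tested transporters 1 was called higher and 3 lower, the same counts as with the common total. *Slc29a1*, the equilibrative nucleoside transporter, rose by 0.84, whereas *Slc28a2*, a concentrative nucleoside transporter, and the mitochondrial carrier *Slc25a36* fell by 0.59 and 0.27.

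**Figure D2:**
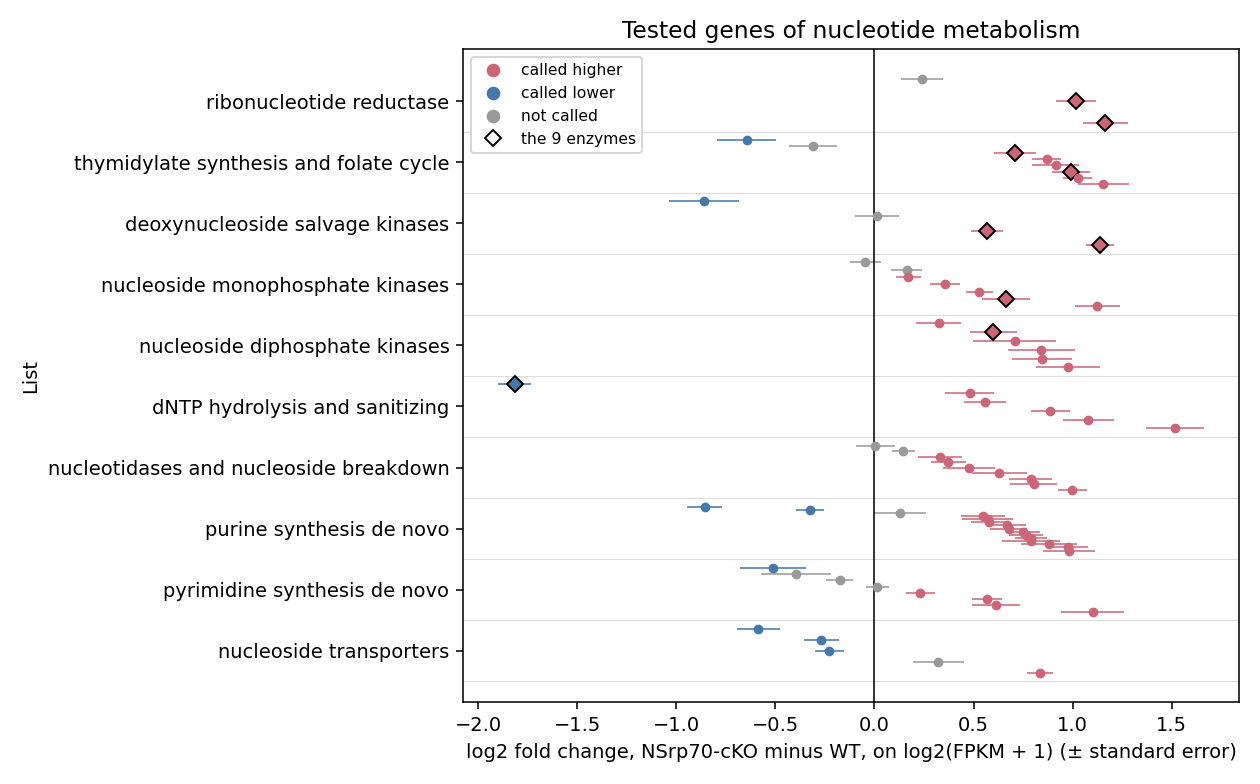
Log2 fold change (NSrp70-cKO minus WT, on log2(FPKM + 1)) with its standard error for each tested gene of the 10 lists; diamonds are the 9 dNTP enzymes, red points are called higher, blue lower and grey not called. Most points lie right of 0, and *Samhd1* at -1.82 stands alone at the left end.

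Together, 62 of the 71 other genes of nucleotide metabolism were tested, and 42 were called higher, 8 lower and 12 not called. Their median log2 fold change was 0.56. These counts depend on scaling. When the libraries were brought to 1 common FPKM total, 21 were called higher and 21 lower, while the median of all tested genes moved from 0.04 to -0.45 and the shares of all tested genes called became 8.74% higher and 59.9% lower.

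The 9 enzymes separated under the same change of scaling. *Rrm1*, *Rrm2*, *Tyms* and *Tk1* stayed called higher, with log2 fold changes of 0.61, 0.46, 0.45 and 0.59. *Dck*, *Dtymk*, *Dut* and *Nme1* were near 0, at 0.01, 0.10, 0.15 and 0.05, and were no longer called (adjusted p = 0.912, 0.53, 0.264 and 0.641 from limma). *Samhd1* stayed lower, at -2.15. Relative to the median of all tested genes under that scaling, all 8 rising enzymes remained above it. When the mean of the WT libraries stood for a single sample, where 7.21% of the tested genes were called higher and 8.73% lower, the same 4 enzymes stayed called higher and *Samhd1* lower (adjusted p = 0.0216 from limma). *Dck*, *Dtymk*, *Dut* and *Nme1* then had adjusted p = 0.0927, 0.0947, 0.0642 and 0.1 from limma, and the calls of *Tk2* and *Nme2* were lost as well (adjusted p = 0.0795 and 0.0882). Quantile normalization lost the calls of *Dck* (log2 fold change 0.08, adjusted p = 0.221 from limma) and *Dtymk* (0.24, adjusted p = 0.135 from limma). Correcting for GC content and for the length of transcripts lost that of *Dtymk* (0.15, adjusted p = 0.298 from limma).

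**Figure D3:**
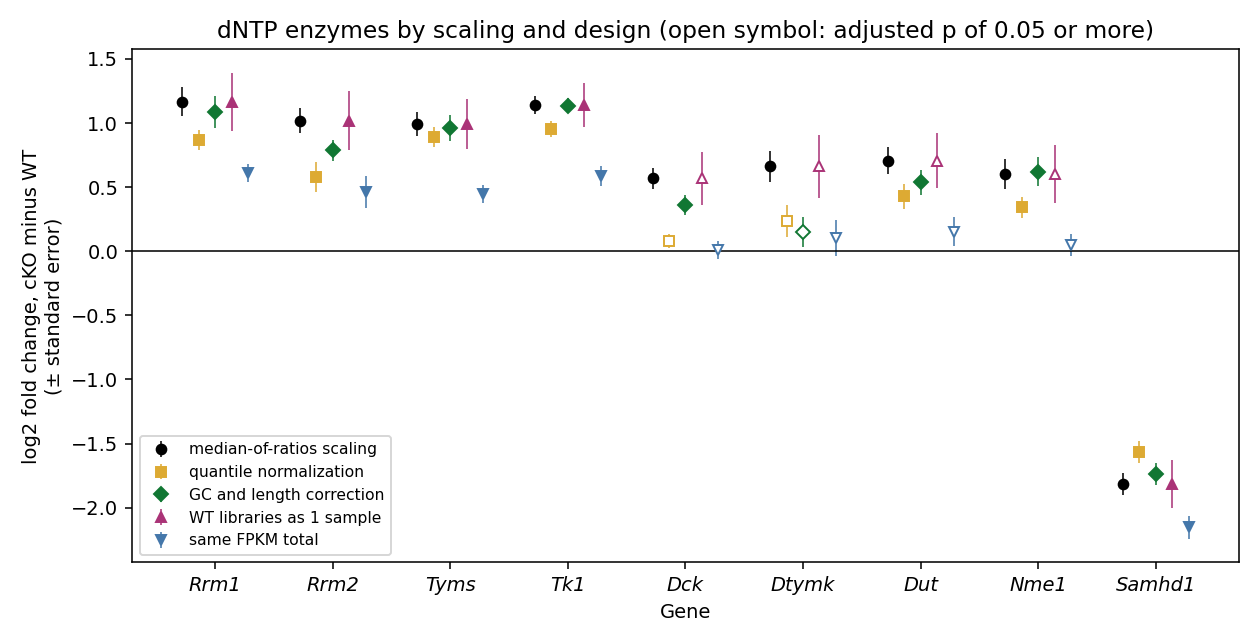
Log2 fold change of each dNTP enzyme (cKO minus WT, with standard error) under 5 ways of scaling or fitting; filled symbols had an adjusted p under 0.05. *Rrm1*, *Rrm2*, *Tyms* and *Tk1* are filled throughout and above 0.4, *Samhd1* is filled throughout and below -1.5, and the other 4 lose the call under at least 2 of the 5.

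Several of these enzymes are made mainly by cells in S phase, so they were set beside 12 markers of cycling cells. All 12 markers were called higher in cKO, with a median log2 fold change of 1.09, and they summed to 1150 FPKM in WT and to 2250 to 2620 in cKO. In sorted cells measured in bulk, more cycling cells and more RNA per cycling cell cannot be told apart. The log2 ratio of each enzyme to the geometric mean of the 12 markers was taken within each library, a comparison added after the values had been seen. For *Rrm1* it was -0.36, -0.34 and -0.28 in WT and -0.17, -0.30 and -0.13 in cKO. For *Tyms* it was -1.61, -1.63 and -1.56 in WT and -1.63, -1.68 and -1.58 in cKO. These enzymes, like *Rrm2* and *Tk1*, overlapped between the groups, and their mean differences were 0.13 for *Rrm1*, -0.03 for *Rrm2*, -0.03 for *Tyms* and 0.11 for *Tk1* (exact permutation p = 0.2, 0.7, 0.4 and 0.2). The log2 fold changes of these enzymes, from 0.99 to 1.17, were near the marker median of 1.09. Their small differences therefore follow from those fold changes and are no separate result.

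Most tested genes stood lower against these markers in cKO: for 89.5% of them every cKO library lay below every WT library, for 1.33% above, and for 9.13% the groups overlapped. *Dck*, *Dtymk*, *Dut*, *Nme1* and *Samhd1* were among the 89.5%, so nothing is read from their lower ratios. For *Dck* the log2 ratio was 1.02, 1.05 and 1.10 in WT and 0.46, 0.66 and 0.60 in cKO, a difference of -0.48. The differences for *Dtymk*, *Dut* and *Nme1* were -0.39, -0.34 and -0.45, and for each of them every cKO library lay below every WT library (exact permutation p = 0.1, the smallest possible). *Samhd1* differed by -4.02. The part that cycling cells have in the levels of the 9 enzymes was not tested.

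**Figure D4:**
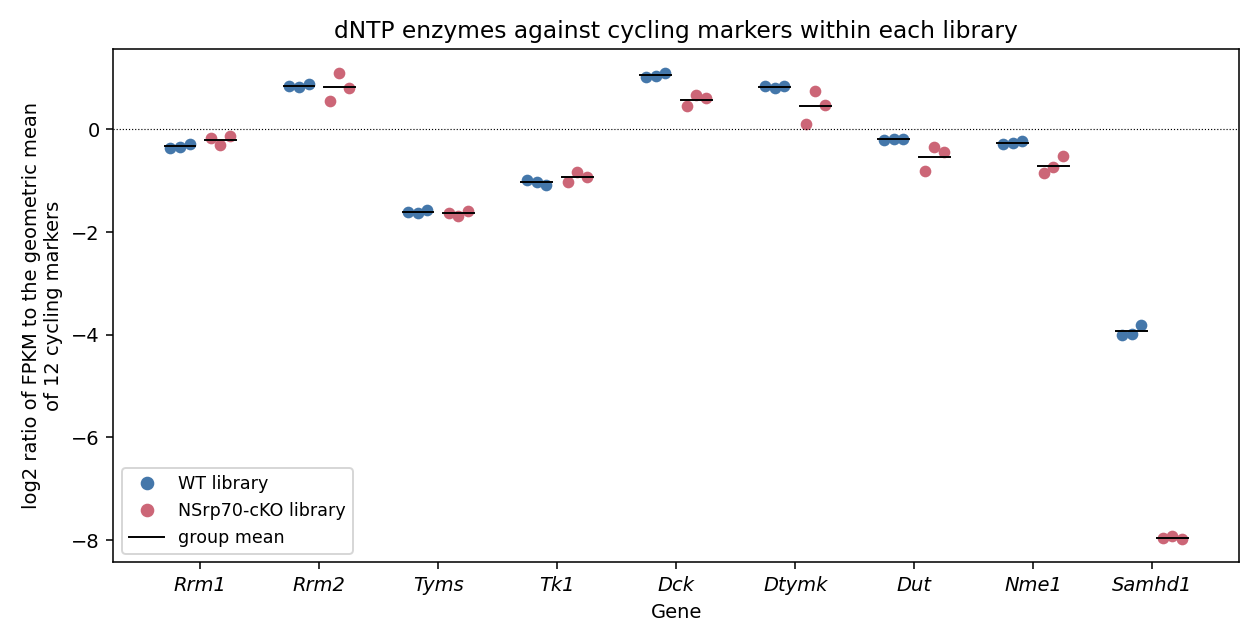
Log2 ratio of the FPKM of each dNTP enzyme to the geometric mean of 12 cycling markers within each library, with the group mean as a line. *Rrm1*, *Rrm2*, *Tyms* and *Tk1* overlap between WT and cKO, *Dck*, *Dtymk*, *Dut* and *Nme1* lie lower in cKO by differences from -0.48 to -0.34, and *Samhd1* differs by -4.02.

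Other markers were measured to see which cells the sorted samples held. DP thymocyte markers were abundant, with sums of 4860 to 4950 FPKM in WT and 6730 to 8840 in cKO, and 6 of 8 were called higher and 2 lower. Double negative and immature single positive markers summed to 50.8 to 51.8 FPKM and to 33.0 to 43.3, with 4 of 6 tested called lower. Of 6 B cell markers 5 were under 1 FPKM in all libraries, and the remaining one, *Cd79b*, was called higher. *Hba-a1*, an erythroid gene, was also called higher, and the erythroid markers summed to 0.625 to 1.13 FPKM in WT and 3.60 to 11.2 in cKO. Of 6 thymic epithelium markers, *Foxn1* and *Krt5* were listed at 0 in all libraries. The 6 summed to 3.56 to 4.01 FPKM in WT and 1.92 to 3.67 in cKO. Only *Epcam* reached 1 FPKM, and it was tested and not called. The part of these cells in the enzyme levels was not tested.

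The genes nearest in profile to the ribonucleotide reductase subunits differed between them. Likeness was the root-mean-square difference of centred log2(FPKM + 1) over the 6 libraries, and it is a description over 6 points that share libraries. The 5 nearest to *Rrm1* were *Ran*, a nuclear transport GTPase, at 0.032, *Psat1*, a serine synthesis enzyme, at 0.034, *Anxa2* at 0.034, *Cox5b* at 0.035 and *Nusap1*, a spindle protein, at 0.038. The 5 nearest to *Rrm2* were *Shcbp1* at 0.029, *Slbp*, which binds histone mRNA in S phase, at 0.032, *Prc1*, a cytokinesis protein, at 0.036, *1810022K09Rik* at 0.042 and the mitotic kinase *Pbk* at 0.049. Of the 10326 tested genes, *Rrm2* ranked 704th nearest to *Rrm1* and *Rrm1* 686th nearest to *Rrm2*, both at 0.21. The library cKO 2 was the lowest cKO library for *Rrm1* and the highest for *Rrm2*.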

How the data were processed

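The authors made poly(A)-enriched directional libraries, mapped paired-end reads to mm10 with TopHat and deposited FPKM values from Cufflinks, 1 per gene symbol and library; the annotation and strand setting are not given in the sources used here. Raw counts, which the study tested with DESeq2, were not used here, so FPKM values were tested with limma 3.58.1 (lmFit, eBayes with trend; R 4.3.3) on log2(FPKM + 1) after median-of-ratios scaling (size factors 1.00 to 1.02), by genotype, with Benjamini-Hochberg adjustment at 0.05. Genes had to reach FPKM 1 in 3 or more libraries. Coordinates and lengths came from GENCODE release M21 on GRCm38, which matched 22110 symbols and a further 664 through synonyms. The fit was tested on simulated data. Python 3.11.15, numpy 2.4.6, pandas 2.3.3, scipy 1.17.1 and matplotlib 3.10.9 were used otherwise.

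The enzymes, gene lists and markers were chosen with earlier results of these data known. Beside the 9 enzymes, the text names *Nsrp1*, the paralogs *Rrm2b*, *Tk2*, *Dguok* and *Nme2*, the folate genes *Shmt1* and *Shmt2*, in each further list up to 3 called genes per direction with the smallest adjusted p, and the 5 genes nearest in profile to *Rrm1* and *Rrm2*. Some genes that this rule names are not reported here. Genes of the marker lists and genes overlapping an enzyme were named after their values were seen. Alternatives were another pseudocount, no filter, other scalings, the replicate number as a block, no trend, WT as 1 sample, a GC and length correction and each library left out. Same-numbered WT and cKO libraries were not shown to be paired.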

Additional observations from a re-analysis of the deposited data

How the results depend on the processing

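The 8 enzymes called higher became 4 when the libraries were brought to 1 common FPKM total and 4 when the WT mean stood for 1 sample; the 1 called lower remained under every alternative. The 50 other genes of nucleotide metabolism called became 18 with WT as 1 sample, and 42 with the common total. None of the 9 enzymes changed direction: of their 126 values under the alternatives, 115 kept the direction and the call and 11 lost the call. Leaving out each library in turn gave 8 to 8 enzymes called higher, 1 to 1 lower and 42 to 56 other genes called. Over all tested genes these fits called 5589 to 7654.

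The named genes that did not pass the test depended on the setting in sign and call. *Rrm2b* was at -0.23 with the same FPKM total and called higher with quantile normalization (0.37, adjusted p = 0.0204 from limma). *Dguok* was called lower with the same total (-0.51, adjusted p = 0.0179 from limma), and was at -0.36 after the GC and length correction and between -0.071 and 0.10 when each library was left out. *Shmt2* was called lower with the same total (-0.84, adjusted p = 0.000161 from limma), with quantile normalization (adjusted p = 0.0462), with the replicate block (adjusted p = 0.0466), without cKO 2 (adjusted p = 0.0236) and without cKO 3 (adjusted p = 0.0409), and was at 0.049 after the GC and length correction. Taken over all genes, the median lay at -0.45 with the same total. It was 0.04 with quantile normalization, with the replicate block and after the GC and length correction. The cause of the changes in sign and call was not tested.

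With the replicate number as a block, 8 enzymes were called higher, 1 lower and 48 other genes were called, so the replicate block changed no enzyme's call. Over all 10326 tested genes 6467 were called with the block. The correlations of deviations of same-numbered libraries were -0.022, 0.039 and 0.031. WT pairs differed by only 1.49 to 1.59 times the variance of counting noise, so these correlations cannot show whether the libraries were paired. The ratio of *Samhd1* to *Rrm1* differed by -2.99 on the log2 scale with a pseudocount of 1.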
